A study of Mus musculus with 10 samples.

Results

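Inflammatory chemokines and cytokines of fat were followed in the inguinal mammary fat pads of mice with and without Fap, on 2 diets. The set holds 9 genes chosen by name, Ccl2, Ccl7, Ccl6, Ccl9, Cxcl1, Cxcl12, Il6, Tnf and Il1b, and all 9 were present among the 30319 gene symbols with values. Total RNA was sequenced from the whole subcutaneous pads of female FVB mice, which were FAP-/- (null) or wild type. Fap encodes a serine protease found on the surface of activated fibroblasts. The mice ate ingredient-matched chow with 10% of calories from fat (LFD) or 60% (HFD) between 12 and 30 weeks of age. The groups were Null_LFD (n = 3), WT_LFD (n = 2), Null_HFD (n = 3) and WT_HFD (n = 2), and the series calls the libraries biological replicates. The labels give the genotype only as FAP-/- and do not say which part of the gene is disrupted.

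Chemokines are small secreted proteins that draw leukocytes along a gradient by binding receptors coupled to G proteins. In obese fat, Ccl2 and Ccl7 call in monocytes through Ccr2, and Ccl6 and Ccl9 are CC chemokines of mouse myeloid cells that bind Ccr1. Cxcl1 attracts neutrophils through Cxcr2, while Cxcl12, made by stromal cells, retains leukocytes that carry Cxcr4. Tnf, Il1b and Il6 are the classical inflammatory cytokines of fat. Tnf and Il1b are released mainly by macrophages, impair insulin action in adipocytes and switch on NF-kB, a transcription factor that in turn raises Ccl2, Cxcl1 and Il6.

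Levels are given as TPM, a relative abundance scaled by transcript length and library, from which sequencing depth cannot be read. From 14574 to 15700 genes reached 1 TPM in a library. Adipocyte markers were plentiful in every library (10 genes summing to 10807 to 33526 TPM). The Fap transcript measured 18.4, 22.4 and 18.3 TPM in Null_LFD, 45.4 and 39.2 TPM in WT_LFD, 26.7, 38.4 and 22.3 TPM in Null_HFD and 68.8 and 37.7 TPM in WT_HFD, so the library labelled Null_HFD 2 lay above the library labelled WT_HFD 2. Null_HFD 3 and WT_HFD 2 stood apart from the rest. Their 16 lymph node markers (B cell, T cell and node stroma genes) summed to 4047 and 1725 TPM, against 30.1 to 84.8 TPM in the other 8 libraries. They also held the lowest sums of 8 skeletal muscle markers (81.1 and 175 TPM, against 1548 to 7865 TPM in the other 8). Their mitochondrial shares were the lowest too (3.36% and 5.91%), but WT_HFD 2 lay close to the other 8 (6.28% to 13.8%). Values without both libraries stand beside the results that moved most without them, and their part in each was not tested. Such values leave WT_HFD 1 as the only WT_HFD library. In whole tissue, fewer cells of a type and less RNA per cell cannot be told apart.

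By their medians, the 9 genes fell into 3 tiers of abundance. Cxcl12, Ccl6 and Ccl9 were abundant, with medians over the 10 libraries of 121, 119 and 64.7 TPM. Ccl2 and Ccl7 were low but reached 1 TPM in all 10 libraries, with medians of 4.06 and 3.44 TPM. Tnf, Il1b and Cxcl1 had medians near 1 TPM, at 1.1, 0.902 and 0.727 TPM, and reached 1 TPM in 6, 4 and 4 libraries. Il6 was listed at 0 in all 10 libraries and is the barely detected member, defined as one with 1 TPM or more in fewer than 2 libraries. Neighbours in this order within a tier had overlapping ranges, whereas the lowest Ccl9 value (36.0 TPM) stood above the highest Ccl2 value (11.9 TPM). The tiers of Ccl7 and Tnf overlapped, since Ccl7 went down to 1.89 TPM and Tnf up to 14.0 TPM.

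**Figure D1:**
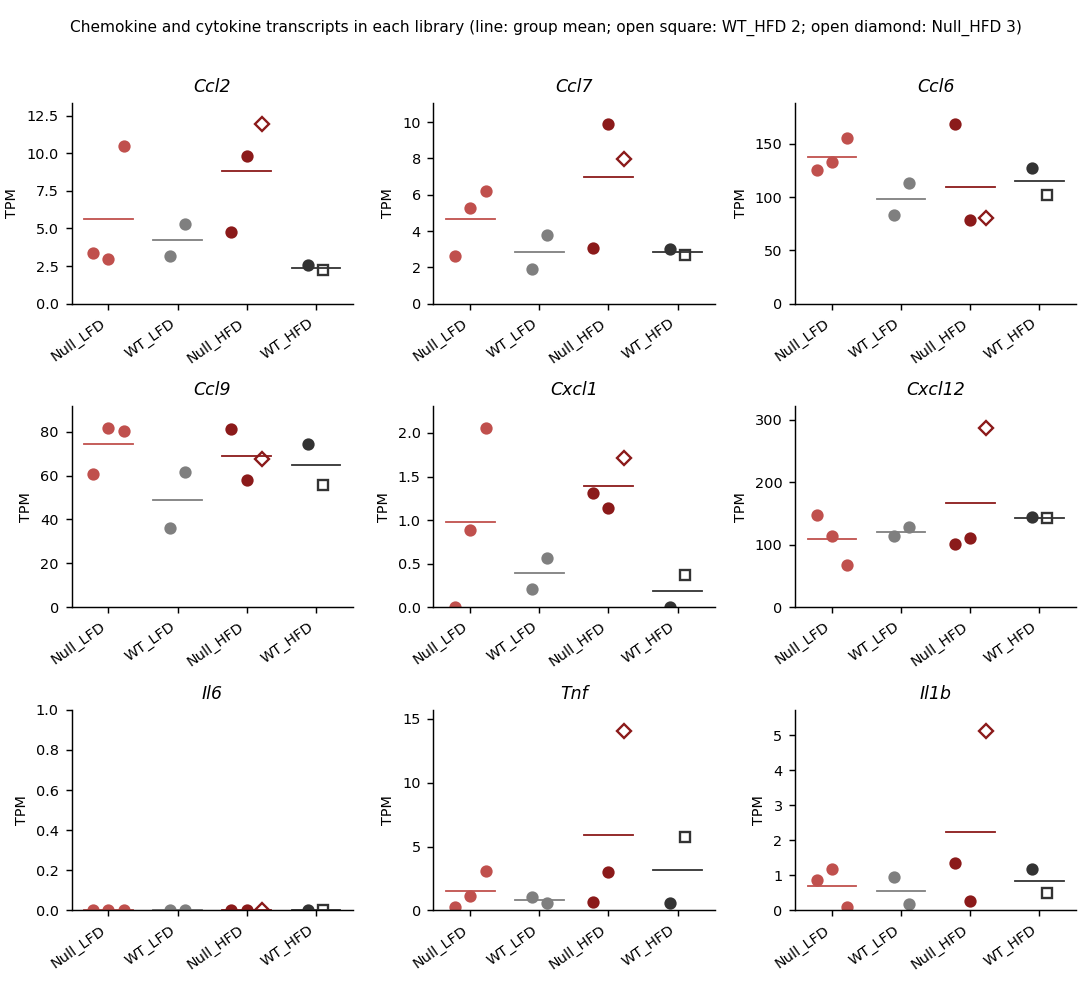
TPM of each of the 9 genes in each library, on linear axes from 0, by group (Null_LFD, WT_LFD, Null_HFD, WT_HFD). Lines mark group means, the open diamond is Null_HFD 3 and the open square is WT_HFD 2. Ccl2 and Ccl7 sit higher in all 3 Null_HFD libraries than in both WT_HFD libraries, Tnf is highest in Null_HFD 3 (14.0 TPM) and WT_HFD 2 (5.75 TPM), and Il6 lies at 0 throughout.

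Genotype was compared to ask whether loss of Fap went with more or less inflammatory signalling in the pad. The monocyte chemokines Ccl2 and Ccl7 and the neutrophil chemokine Cxcl1 measured higher in null than in wild-type pads, most clearly on the high-fat diet, but no member passed the test over all genes. Averaged over the diets, 7 of the 8 members tested had a positive null minus wild-type difference, and the median was 0.38 on the log2(TPM + 1) scale, against 0.08 over all 16932 genes tested. Limma called 0 of the 8 members at an adjusted p of at most 0.05, and 0% of all genes. None of the 8 had an unadjusted p under 0.05 either, a mark that 4.19% of all genes reached. The 6 null and 4 wild-type libraries did not separate for any member, where 0.921% of all genes separated.

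Within the low-fat diet, limma called 0 of 8 members and 0% of all genes. Ccl9 alone had an unadjusted p under 0.05, as did 4.43% of all genes, and Ccl6 alone had libraries that did not overlap between the genotypes, as did 25.4% of all genes. Within the high-fat diet, limma called 0 of 8 members and 0.0118% of all genes. Ccl2 alone had an unadjusted p under 0.05, as did 3.82% of all genes. The libraries of Ccl2, Ccl7 and Cxcl1 did not overlap, 3 of 8 members, where 15.5% of all genes did not overlap. On the low-fat diet the median of all genes was shifted by 0.15 toward null pads, so differences near that size are not relative to a centre of 0.

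Ccl2 (ENSMUSG00000035385.5), the main chemoattractant of Ccr2-bearing monocytes, lies on the plus strand of chromosome 11, 82035571 to 82037453 (GRCm38). It measured 4.74, 9.84 and 11.9 TPM in Null_HFD pads, against 2.56 and 2.22 TPM in WT_HFD pads. All 3 null libraries stood above both wild-type libraries on this diet. The group means were 8.83 ± 3.69 TPM in Null_HFD (SD, n = 3) and 2.39 ± 0.24 TPM in WT_HFD (SD, n = 2). The log2 difference was 1.46 (SE 0.52, limma adjusted p = 1 over all genes). Without Null_HFD 3 and WT_HFD 2 the difference was 1.15, set against WT_HFD 1 alone. On the low-fat diet it measured 3.37, 2.97 and 10.5 TPM in null pads, against 3.17 and 5.27 TPM in wild-type pads. There the genotypes overlapped and Null_LFD 3 alone was high, and the log2 difference was 0.19 (SE 0.52, limma adjusted p = 0.986). Averaged over the diets, Ccl2 differed by 0.83 (SE 0.37, limma adjusted p = 0.98).

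Ccl7 (ENSMUSG00000035373.2), a second ligand of Ccr2, begins 8258 bases downstream of Ccl2 on the same strand, at 82045712 to 82047525. It measured 3.07, 9.87 and 7.98 TPM in Null_HFD pads, against 2.99 and 2.70 TPM in WT_HFD pads. The groups did not overlap, although Null_HFD 1 lay just above WT_HFD 1. The log2 difference was 0.94 (SE 0.48, limma adjusted p = 1). Without Null_HFD 3 and WT_HFD 2 the difference was 0.74, set against WT_HFD 1 alone. On the low-fat diet it measured 2.64, 5.24 and 6.18 TPM in null pads and 1.89 and 3.81 TPM in wild-type pads, with overlap (log2 difference 0.55, SE 0.48, limma adjusted p = 0.949). That difference ran from 0.18 to 0.92 when single libraries were left out. The averaged difference was 0.74 (SE 0.34, limma adjusted p = 0.98).

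Ccl6 and Ccl9 form another neighbouring pair, on the minus strand of chromosome 11, with 1525393 bases between Ccl7 and Ccl9. Ccl9 (ENSMUSG00000019122.8) lies at 83572919 to 83578636 and Ccl6 (ENSMUSG00000018927.3) at 83587882 to 83593087, 9245 bases apart. The 250 bases before each start site are shown because the genes are neighbours whose levels are set side by side here. Capitals mark the only stretch of 8 or more identical bases in their best local alignment, 13 bases long, which runs from 55 to 43 bases before the Ccl6 start site and from 14 to 2 bases before the Ccl9 start site (RefSeq, GRCm38.p6, chromosome 11, minus strand, 83593088 to 83593337 for Ccl6 and 83578637 to 83578886 for Ccl9).
Ccl6: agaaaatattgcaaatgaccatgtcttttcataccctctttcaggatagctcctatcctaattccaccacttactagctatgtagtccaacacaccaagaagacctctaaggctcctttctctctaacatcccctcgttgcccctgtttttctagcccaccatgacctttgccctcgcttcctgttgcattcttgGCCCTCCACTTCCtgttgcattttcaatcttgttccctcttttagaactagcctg
Ccl9: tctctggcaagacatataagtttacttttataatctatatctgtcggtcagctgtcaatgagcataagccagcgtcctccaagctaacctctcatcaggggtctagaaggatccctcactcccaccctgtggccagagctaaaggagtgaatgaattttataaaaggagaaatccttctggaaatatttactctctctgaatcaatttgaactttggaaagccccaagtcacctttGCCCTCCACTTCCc

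Ccl6 measured 126, 133 and 156 TPM in Null_LFD pads, against 83.0 and 113 TPM in WT_LFD pads. The null libraries all stood above the wild-type ones on this diet, and the log2 difference was 0.50 (SE 0.33, limma adjusted p = 0.949), or 0.28 to 0.72 with single libraries left out. On the high-fat diet it measured 168, 78.6 and 80.9 TPM in null pads and 127 and 102 TPM in wild-type pads. Null libraries then held both the highest and the lowest value, and the log2 difference was -0.16 (SE 0.33, limma adjusted p = 1). Ccl9 measured 60.6, 81.8 and 80.1 TPM in Null_LFD pads and 36.0 and 61.8 TPM in WT_LFD pads, where Null_LFD 1 fell just under WT_LFD 2. Its low-fat difference of 0.63 (SE 0.28, limma adjusted p = 0.949) was 0.25 without WT_LFD 1 and 1.01 without WT_LFD 2. On the high-fat diet Ccl9 measured 81.3, 57.7 and 67.6 TPM in null pads and 74.3 and 55.5 TPM in wild-type pads, a log2 difference of 0.09 (SE 0.28, limma adjusted p = 1).

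Marker lists of several cell types were set beside these chemokines, and their genotype estimates went in both directions. Macrophage markers lay on the same side of the low-fat comparison as Ccl6 and Ccl9. The 15 macrophage genes with values summed to 1233 to 1543 TPM in Null_LFD and 907 to 985 TPM in WT_LFD pads, with Lyz2, the macrophage lysozyme gene, at 546, 600 and 360 TPM in null and 373 and 325 TPM in wild-type pads. On the high-fat diet the sums were 1104 to 2300 TPM in null and 1105 to 1419 TPM in wild-type pads. Null_HFD 3 and WT_HFD 2 gave the upper ends. There 9 of 15 estimates were positive with a median of 0.08, or 7 of 15 and -0.04 without these libraries. Of the 15, 13 measured higher in null pads on the low-fat diet and limma called none (2 at an unadjusted p under 0.05). Mammary epithelium markers summed to 1264 to 2251 TPM in Null_LFD and 388 to 824 TPM in WT_LFD pads, with 9 of 10 estimates positive and a median log2 difference of 1.16. Their high-fat sums were 286 to 783 TPM in null and 999 to 1140 TPM in wild-type pads, with 0 of 10 positive and a median of -0.96, or 2 of 10 and -0.48 without Null_HFD 3 and WT_HFD 2. Skeletal muscle markers summed to 2704 to 7865 TPM in Null_LFD and 1548 to 2197 TPM in WT_LFD pads, with 8 of 8 positive and a median of 1.41. In the high-fat comparison 7 of 8 were positive with a median of 0.68, the sums being 81.1 to 4323 TPM in null and 175 to 2292 TPM in wild-type pads. Monocyte markers went the other way on the low-fat diet, with 1 of 6 estimates positive and a median of -0.15. On the high-fat diet 2 of 6 were positive with a median of -0.13, or 1 of 6 and -0.335 without Null_HFD 3 and WT_HFD 2. Mature adipocyte markers had 2 of 10 positive on the low-fat diet, with a median of -0.46. Their high-fat median was -0.03, and 0.39 without Null_HFD 3 and WT_HFD 2. Limma called no gene of these lists. The part of macrophage, monocyte, adipocyte, epithelial or muscle content in the members' differences was not tested.

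Cxcl1 (ENSMUSG00000029380.11), the neutrophil attractant also called KC, lies on the plus strand of chromosome 5, 90891241 to 90893115, and Il6 (ENSMUSG00000025746.11) on the same strand at 30013114 to 30019981. Both upstream regions carry an NF-kB-like word, GGGA, any base and then TTTCC, and they are shown because the transcripts differed in detection, Cxcl1 being measurable and Il6 listed at 0. The word was searched on both strands of the 250 bases before the start site, and 117 of 32851 RefSeq promoters hold it (0.356%). Of the 7 members with a RefSeq promoter (all but Ccl2 and Ccl7), 2 hold it, Cxcl1 from 71 to 62 and Il6 from 44 to 35 bases before the start site. Capitals mark the match (GRCm38.p6, plus strand, chromosome 5, 90890995 to 90891244 for Cxcl1 and 30012864 to 30013113 for Il6).
Cxcl1: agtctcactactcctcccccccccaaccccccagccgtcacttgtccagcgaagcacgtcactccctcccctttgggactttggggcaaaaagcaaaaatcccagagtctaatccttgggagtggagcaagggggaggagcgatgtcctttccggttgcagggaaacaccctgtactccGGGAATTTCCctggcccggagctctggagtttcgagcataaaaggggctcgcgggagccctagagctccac
Il6: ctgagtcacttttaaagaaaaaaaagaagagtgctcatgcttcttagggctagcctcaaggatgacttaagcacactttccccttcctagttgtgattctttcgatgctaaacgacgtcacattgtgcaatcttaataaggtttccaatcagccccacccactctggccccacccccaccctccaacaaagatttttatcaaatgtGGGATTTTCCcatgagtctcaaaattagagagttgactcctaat

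Cxcl1 measured 1.31, 1.14 and 1.71 TPM in Null_HFD pads, against 0 and 0.373 TPM in WT_HFD pads. The null libraries stood above the wild-type ones, with a log2 difference of 1.02 (SE 0.47, limma adjusted p = 1). Without Null_HFD 3 and WT_HFD 2 the difference was 1.15, set against WT_HFD 1 alone, at 0 TPM. On the low-fat diet it measured 0, 0.886 and 2.06 TPM in null pads and 0.212 and 0.568 TPM in wild-type pads, spanning the whole range within 1 genotype. The averaged difference was 0.70 (SE 0.33, limma adjusted p = 0.98). Values this close to 0 are compressed by the added 1 TPM, and the high-fat difference ran from 0.30 to 2.76 over the alternatives tried. The 10 neutrophil markers summed to 56.6 to 101 TPM in Null_HFD and 70.3 to 81.6 TPM in WT_HFD pads. Ltf (lactoferrin, also made by mammary epithelium) gave 67.8, 38.1 and 29.1 TPM of this in Null_HFD and 66.2 and 48.9 TPM in WT_HFD pads. Of the 6 tested, 5 had positive high-fat genotype estimates with a median of 0.37, and limma called none. Without Null_HFD 3 and WT_HFD 2, 2 of 5 were positive and the median was -0.37. S100a8 and S100a9, calcium-binding proteins that fill neutrophils, peaked in Null_HFD 3 at 17.2 and 18.6 TPM, whereas Ly6g, the defining neutrophil surface marker, stayed at or below 0.588 TPM in all 10 libraries. The part of neutrophils in the Cxcl1 values was not tested. Il6, with 0 in every library, was not tested.

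Cxcl12 (ENSMUSG00000061353.11; plus strand of chromosome 6, 117168535 to 117181367) is the stromal chemokine of the set. It measured 147, 113 and 67.5 TPM in Null_LFD, 113 and 128 TPM in WT_LFD, 101, 111 and 287 TPM in Null_HFD and 144 and 142 TPM in WT_HFD pads. The genotypes overlapped on both diets, and the highest and lowest libraries were both null. The log2 difference between the genotypes was -0.08 on average (SE 0.32, limma adjusted p = 0.997). On the high-fat diet it was 0.05 (SE 0.45, limma adjusted p = 1), and -0.44 (SE 0.41) without Null_HFD 3 and WT_HFD 2.

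Tnf (ENSMUSG00000024401.14; minus strand of chromosome 17, 35199381 to 35202007), the founding member of its cytokine family, had a spread over the libraries of 58.4 times between lowest and highest TPM, close to the 56.5 times of Il1b. It measured 0.240, 1.13 and 3.1 TPM in Null_LFD, 1.07 and 0.577 TPM in WT_LFD, 0.656, 2.99 and 14.0 TPM in Null_HFD and 0.565 and 5.75 TPM in WT_HFD pads. Its highest values fell in Null_HFD 3 and WT_HFD 2, and the other 8 libraries ran from 0.240 to 3.1 TPM, with null libraries at both ends. The averaged genotype difference was 0.40 (SE 0.66, limma adjusted p = 0.983), and 0.50 (SE 0.49) without these 2 libraries.

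Il1b (ENSMUSG00000027398.13; minus strand of chromosome 2, 129364570 to 129371139) encodes interleukin 1 beta, which needs cleavage by caspase 1. It shares its chromosome with Fap, whose end at 62574075 lies 66790494 bases away. It measured 0.858, 1.17 and 0.0906 TPM in Null_LFD, 0.946 and 0.181 TPM in WT_LFD, 1.36, 0.259 and 5.12 TPM in Null_HFD and 1.17 and 0.490 TPM in WT_HFD pads. Null_HFD 3 was highest, and elsewhere no library passed 1.36 TPM. The averaged genotype difference was 0.33 (SE 0.45, limma adjusted p = 0.98), and -0.11 (SE 0.40) without Null_HFD 3 and WT_HFD 2.

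**Figure D2:**
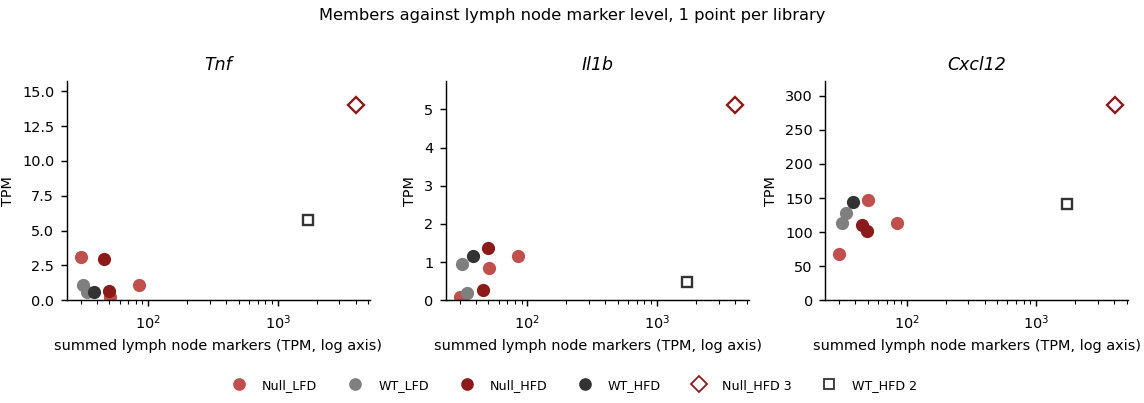
TPM of Tnf, Il1b and Cxcl12 (linear axes from 0) against the summed TPM of 16 lymph node markers (log axis), 1 point per library, coloured by group. Null_HFD 3 (4047 TPM of markers) is the highest point for all 3 genes, while WT_HFD 2 (1725 TPM) stands above the remaining libraries for Tnf but not for Il1b (0.490 TPM) or Cxcl12 (142 TPM).

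The diets were compared to ask what the high-fat chow did to the same genes. Of the 8 members tested, 7 had a positive high-fat minus low-fat difference averaged over the genotypes, with a median of 0.20 against 0.11 over all genes, and limma called none, as for 0% of all genes. None had an unadjusted p under 0.05 (9.69% of all genes), and the 5 high-fat and 5 low-fat libraries separated for no member (2% of all genes). Tnf had the biggest estimate of the 8, at 0.96 (SE 0.66, limma adjusted p = 0.592), with a median of 2.99 TPM over the HFD libraries (0.565 to 14.0) and 1.07 TPM over the LFD libraries (0.240 to 3.1). Without Null_HFD 3 and WT_HFD 2 this estimate was 0.00398 (SE 0.49). Il1b differed by 0.46 (SE 0.45) and Cxcl12 by 0.37 (SE 0.32), and by 0.30 (SE 0.40) and 0.14 (SE 0.26) without these libraries. Ccl2 differed by 0.04 (SE 0.37) and Ccl6 by -0.09 (SE 0.23), and both signs turned without them (-0.04 and 0.07).

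Within wild type, Ccl2 measured 2.56 and 2.22 TPM in WT_HFD, below the 3.17 and 5.27 TPM of WT_LFD pads (log2 difference -0.60, SE 0.57, limma adjusted p = 0.782), and Cxcl12 measured 144 and 142 TPM in WT_HFD, above the 113 and 128 TPM in WT_LFD pads (0.25, SE 0.50, limma adjusted p = 0.898). These 2 of 8 members had no overlap between the diets, where 45.1% of all genes had none, and limma called 0 of 8 members and 0% of all genes. No member had an unadjusted p under 0.05, as 5.61% of all genes did. Within null pads no member separated by diet (11.1% of all genes) and limma called 0 of 8 members, against 0.00591% of all genes. None reached an unadjusted p under 0.05 there (6.67% of all genes), and Ccl2 differed by 0.67 (SE 0.47, limma adjusted p = 0.804).

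The interaction asks whether the diet difference was larger in null than in wild-type pads. It was called for 0 of 8 members and 0% of all genes, and no member had an unadjusted p under 0.05 (4.14% of all genes). Ccl2 had the biggest estimate, 1.27 (SE 0.74, limma adjusted p = 1), and Ccl6 the lowest, -0.66 (SE 0.46, limma adjusted p = 1). The genotype effects on the 2 diets were therefore not shown to differ for any member.

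**Figure D3:**
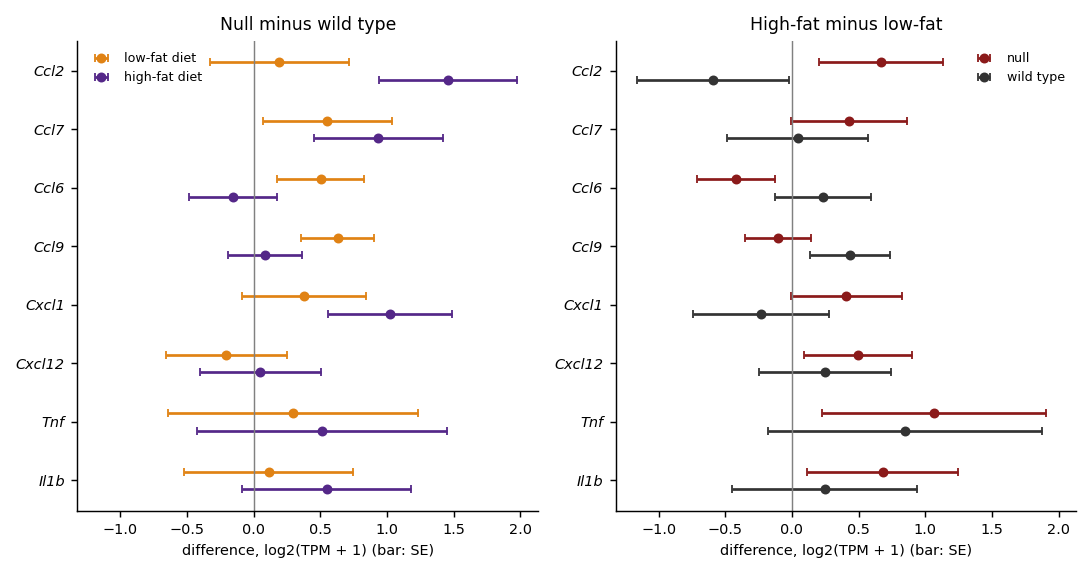
Differences of the 8 tested members on the log2(TPM + 1) scale, as points with bars of 1 SE from limma, for null minus wild type by diet (left) and high-fat minus low-fat by genotype (right). Ccl2 on the high-fat diet (1.46) lies farthest from 0 in the left panel, and the wide bars of Tnf (SE 0.94 in the left panel) reflect its spread between libraries.

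Pairs of members were compared over libraries. Correlations are given over the 8 libraries outside Null_HFD 3 and WT_HFD 2, on the log2(TPM + 1) scale, with exact two-sided permutation p adjusted over the 28 pairs. For the neighbours Ccl6 and Ccl9 the correlation was positive but missed the threshold (Pearson r = 0.82, exact p = 0.00538, adjusted p = 0.0753; Spearman rho = 0.88, exact p = 0.00724, adjusted p = 0.101), and r was 0.76 over 6 libraries without Null_HFD 2 and WT_LFD 1, the farthest in Ccl6. Cxcl1 and Cxcl12 ran against each other (r = -0.88, exact p = 0.00129, adjusted p = 0.0361; rho = -0.92, exact p = 0.00268, adjusted p = 0.075), and r was -0.81 without Null_LFD 3 and WT_HFD 1. This was the 1 pair of 28 past the threshold, by r and not by rho, and Null_HFD 3 broke from it with 1.71 TPM of Cxcl1 and 287 TPM of Cxcl12. Over all 10 libraries r was -0.174 and rho -0.486, and Cxcl1 ran only from 0 to 2.06 TPM, near the floor. Ccl2 and Ccl7 had r = 0.76 (exact p = 0.0292, adjusted p = 0.102) and rho = 0.62 (exact p = 0.115, adjusted p = 0.322). Without Null_HFD 2 and Null_LFD 3, the farthest in Ccl2, r was 0.12 over the 6 other libraries, whose Ccl2 range is narrower. Over all 10 libraries, with Null_HFD 3 also high in both genes, r was 0.823 and rho 0.697. The permutations exchanged libraries freely across the 4 groups, so their p-values do not separate group differences from variation within groups. TPM values of a library also share its total. The part of the groups or of the shared total in these correlations was not tested.

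**Figure D4:**
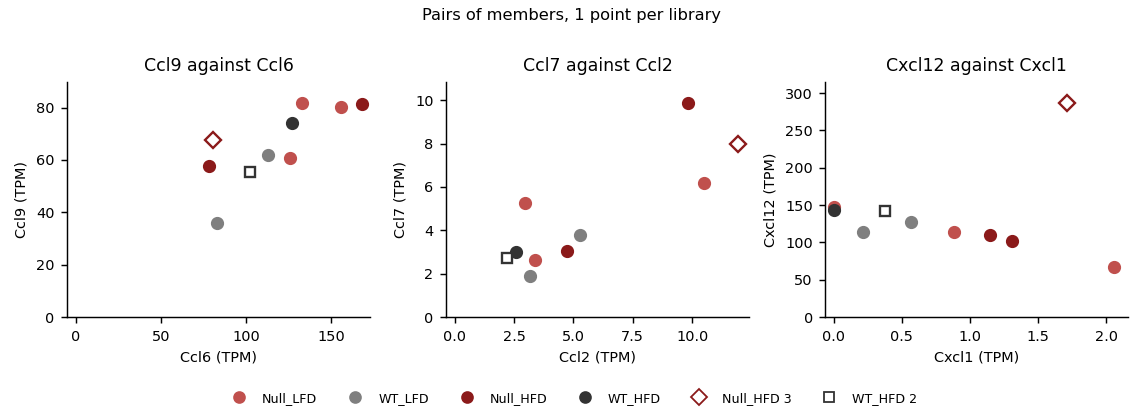
TPM of Ccl9 against Ccl6, Ccl7 against Ccl2 and Cxcl12 against Cxcl1 (linear axes), 1 point per library, coloured by group. Ccl9 is higher where Ccl6 is higher, Ccl2 and Ccl7 are jointly high in Null_HFD 2, Null_HFD 3 and Null_LFD 3, and libraries with more Cxcl1 tend to have less Cxcl12, with Null_HFD 3 (open diamond) farthest from that order.

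Receptors for these ligands were present in every group. Of 17 receptor and co-receptor genes, 16 were tested and Ccr3 stayed at or below 0.560 TPM. Limma called none of the 16 in any of the 7 comparisons. In the averaged genotype comparison 10 of 16 estimates were positive, with a median of 0.09. In the averaged diet comparison 4 of 16 had an unadjusted p under 0.05 (Cxcr4, Il6ra, Il6st and Tnfrsf1b, all higher on the high-fat diet), 14 of 16 were positive and the median was 0.15. Over all genes 9.69% had such a p and the median was 0.11, so the receptors' median lay close to that of all genes. Without Null_HFD 3 and WT_HFD 2, 2 were higher and 1 lower at an unadjusted p under 0.05 in the diet comparison, and limma again called 0 of 16. The receptor median was then 0.19 and that of all genes 0.06, and 5.7% of all genes had an unadjusted p under 0.05.

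Among the CC receptors, Ccr2, the receptor of Ccl2 and Ccl7, measured 20.1, 15.4 and 37.1 TPM in Null_HFD and 22 and 16.0 TPM in WT_HFD pads. It overlapped between the genotypes there, whereas Ccl2 and Ccl7 did not. Ccl12, another Ccr2 ligand, also overlapped, at 0.561, 3.98 and 9.17 TPM in Null_HFD and 0 and 2.35 TPM in WT_HFD pads. On the low-fat diet Ccr2 measured 13, 24.0 and 15.4 TPM in null and 21.0 and 17.5 TPM in wild-type pads. Ccr1, the receptor of Ccl6 and Ccl9, ran from 1.41 to 3.30 TPM over the 10 libraries. The scavenger Ackr2, which clears inflammatory CC chemokines, measured 7.07, 7.03 and 5.74 TPM in Null_LFD, all above the 3.64 and 3.39 TPM of WT_LFD pads (0.75, SE 0.33, limma adjusted p = 0.949). Its interaction estimate was -1.15 (SE 0.46, limma adjusted p = 1), and -0.71 (SE 0.48) without Null_HFD 3 and WT_HFD 2. The other atypical receptors, which take up chemokines without classical signalling, ran from 6.95 to 14.0 TPM (Ackr1), 14.0 to 32.2 TPM (Ackr3, which also binds Cxcl12) and 2.56 to 10.8 TPM (Ackr4).

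Cxcr4, the receptor of Cxcl12, measured 18.7, 20.6 and 122 TPM in Null_HFD and 17.8 and 115 TPM in WT_HFD pads, against 21.6, 22.2 and 24.4 TPM in Null_LFD and 7.56 and 7.51 TPM in WT_LFD pads. Its top values fell in the libraries with the most lymph node transcripts. Its averaged diet difference was 1.55 (SE 0.61, limma adjusted p = 0.513), and 0.47 without them. That 0.47 averaged 1.14 in wild type, with 1 WT_HFD library left, and -0.20 in null pads. On the low-fat diet, which holds neither of these libraries, all null libraries stood above both wild-type libraries. The low-fat genotype difference was 1.47, also not called. Cxcr2, the receptor of Cxcl1, ran from 7.84 to 23.8 TPM. Il6st, the signalling chain gp130 shared by the IL-6 family, was the most abundant receptor gene at 112 to 287 TPM, although Il6 itself was at 0. The ligand-binding chain Il6ra measured 11.0, 12.4, 24.9, 13.2 and 29.3 TPM over the 5 high-fat libraries, each above the low-fat libraries (6.34 to 9.56 TPM). That diet difference was 1.1 (SE 0.29, limma adjusted p = 0.513), and 0.66 (SE 0.21, limma adjusted p = 0.845) without Null_HFD 3 and WT_HFD 2.

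For the cytokine receptors, Tnfrsf1a, the broadly expressed Tnf receptor, stayed between 53.4 and 102 TPM. Tnfrsf1b, the leukocyte-rich Tnf receptor, measured 19.6, 18.0 and 65.9 TPM in Null_HFD and 11.9 and 26.5 TPM in WT_HFD pads, against 9.55 to 13.2 TPM in Null_LFD and WT_LFD libraries. Its diet difference was 0.95 (SE 0.38, limma adjusted p = 0.513), and 0.38 (SE 0.18) without the lymph node-rich libraries. Il1r1, the signalling receptor of interleukin 1, measured 21.1, 19.2 and 21.4 TPM in Null_LFD, below the 32.3 and 32.2 TPM of WT_LFD pads (-0.63, SE 0.18, limma adjusted p = 0.949). On the high-fat diet it measured 27.2, 30.2 and 35.2 TPM in null and 25.9 and 26.3 TPM in wild-type pads, and the interaction was 0.85 (SE 0.25, limma adjusted p = 1). The decoy receptor Il1r2 measured 6.15, 3.37 and 9.16 TPM in Null_HFD and 7.65 and 23.0 TPM in WT_HFD pads (-1.08, SE 0.47, limma adjusted p = 1), and -0.63 (SE 0.38) without Null_HFD 3 and WT_HFD 2. Its partner chain Il1rap ran from 5.39 to 11.1 TPM over the 10 libraries.

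**Figure D5:**
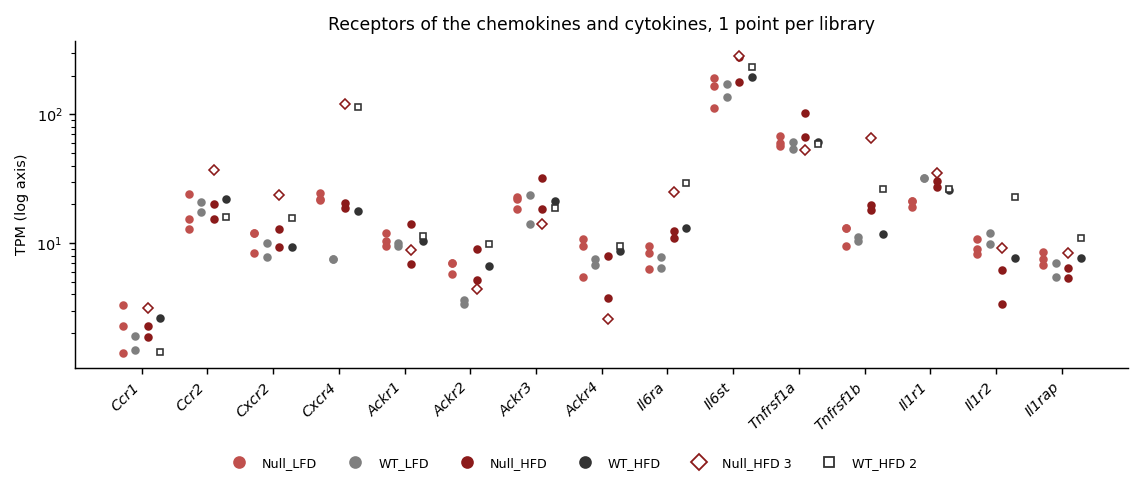
TPM (log axis) of 15 receptor and co-receptor genes, 1 point per library, with groups side by side in the order Null_LFD, WT_LFD, Null_HFD, WT_HFD. Il6st is the highest gene (112 to 287 TPM), and Cxcr4 is set apart by Null_HFD 3 (122 TPM) and WT_HFD 2 (115 TPM).

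Genes that process or oppose these cytokines were measured as a list of 9. Limma called 0 of 9 in each of the 7 comparisons, with 1 at an unadjusted p under 0.05 in the averaged genotype comparison and 2 in the averaged diet comparison. Il1rn, the secreted antagonist that blocks the interleukin 1 receptor, was among them in both. It measured 6.39, 4.46 and 1.73 TPM in Null_LFD, against 0.622 and 0.620 TPM in WT_LFD pads, and 7.79, 11.6 and 6.92 TPM in Null_HFD, against 5.93 and 2.48 TPM in WT_HFD pads. Null libraries stood above wild-type libraries on each diet, while Il1b itself overlapped. The averaged genotype difference was 1.26 (SE 0.34, limma adjusted p = 0.916) and the averaged diet difference 1.3 (SE 0.34, limma adjusted p = 0.513). Without Null_HFD 3 and WT_HFD 2 these were 1.08 (SE 0.37) and 1.62 (SE 0.37), with adjusted p of 0.757 and 0.842. Rhbdf2, which escorts the Tnf-shedding protease Adam17 to the surface, differed by diet by 0.89 (SE 0.29, limma adjusted p = 0.513; 0.53, SE 0.27, without these libraries), and Socs3, a feedback inhibitor of IL-6 signalling, by genotype by 0.52 (SE 0.37, limma adjusted p = 0.98). Rhbdf2 differed by genotype by 0.36, and Gsdmd, the pore protein that lets interleukin 1 beta out of cells, by diet by 0.57. Without Null_HFD 3 and WT_HFD 2 these were 0.59 (SE 0.27) and 0.11 (SE 0.24).

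Targets of NF-kB numbered 21 tested of 22. For genotype, 14 of 21 averaged estimates were positive with a median of 0.22, and limma called none (0 at an unadjusted p under 0.05). For diet, 20 of 21 were positive with a median of 0.73, limma called none, and 5 had an unadjusted p under 0.05, against a median of 0.11 and 9.69% over all genes. Without Null_HFD 3 and WT_HFD 2 the diet median was 0.12 and 2 of 21 had an unadjusted p under 0.05, against 0.06 and 5.7% over all genes. Tnip1, which restrains NF-kB with A20, measured 30.4, 42.0 and 71.9 TPM in Null_HFD and 34.8 and 49.9 TPM in WT_HFD, all above the low-fat libraries (15.9, 17.2 and 19.7 TPM in null, 20.6 and 23.7 TPM in wild type; diet difference 1.1, SE 0.23, limma adjusted p = 0.513). Irf1, an interferon and NF-kB response factor, differed by diet by 0.79 (SE 0.26) and Tnfaip3, which encodes A20, by 1.46 (SE 0.57), both with a limma adjusted p of 0.513. Without Null_HFD 3 and WT_HFD 2 these diet differences were 0.81 for Tnip1, 0.53 for Irf1 and 0.58 for Tnfaip3. The smallest p for genotype belonged to Tnfaip2 (0.42), Bcl3 (0.35) and the endothelial selectin Sele (-0.34), none of them called, and without both libraries they were 0.70, 0.32 and -0.72. Immediate early genes, which respond within minutes to stress and handling, had 11 of 11 positive genotype estimates with a median of 0.61, led by Ier3 (0.63, SE 0.19, limma adjusted p = 0.98), Ier2 (0.76) and Nr4a1 (0.61), and limma called none. For diet 6 of 11 were positive with a median of 0.03, and Ier3 (-0.31), Ier2 (0.57) and Egr1 (-0.55) had the smallest p, again with none called. The Ier2 diet difference was 0.20 without Null_HFD 3 and WT_HFD 2.

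Among 26 tested chemokines outside the set, 12 averaged genotype estimates were positive and 14 negative (median -0.02), and limma called none, with 0 at an unadjusted p under 0.05. Without Null_HFD 3 and WT_HFD 2, 13 of 24 were positive, with a median of 0.07 (0.11 over all genes). Single genes moved more, with Cxcl13 then at -1.51 and Ccl21a at 0.97. For diet over all 10 libraries, 13 were positive and 13 negative (median -0.02) and limma called none. Ccl25, a chemokine of gut and thymus, measured 1.74, 3.88 and 5.98 TPM in Null_HFD and 3.43 and 4.23 TPM in WT_HFD pads, against 2.89, 5.46 and 6.68 TPM in Null_LFD and 15.9 and 11.1 TPM in WT_LFD pads. Its averaged diet difference was -0.96 (SE 0.31, limma adjusted p = 0.513) and its genotype difference -0.70 (SE 0.31, limma adjusted p = 0.98), where Cxcl14 (0.45, and 0.83 without Null_HFD 3 and WT_HFD 2) and Cxcl5 (0.28) followed. Ccl21a and Ccl22, chemokines of lymph node stroma and dendritic cells, differed by diet by 4.32 (SE 1.37) and 2.50 (SE 1.18), with Ccl21a at 748 TPM in Null_HFD 3 and 298 TPM in WT_HFD 2 against 0.479 to 15.5 TPM in the other 8. Ccl21a is also among the lymph node markers. Without these 2 libraries the differences were 1.84 (SE 0.31, limma adjusted p = 0.7) for Ccl21a and 0.48 (SE 0.37) for Ccl22. Of 16 other cytokines tested, 15 genotype estimates were positive (median 0.24) and limma called none. Il15, a growth factor of T and NK cells, led them at 0.66 (SE 0.21, limma adjusted p = 0.98), followed by Il11 (0.44) and Mif (0.42). For diet, 12 of 16 were positive (median 0.45), and Tgfb1 (0.63, SE 0.21) and Il18 (1.05, SE 0.36) led, each with a limma adjusted p of 0.513, followed by Ltb, a lymphotoxin of lymphoid tissue (2.29). Outside Null_HFD 3 and WT_HFD 2, 7 of 13 were positive with a median of 0.12 (0.06 over all genes), and the diet differences were 0.34 for Tgfb1, 0.65 for Il18 and 0.33 for Ltb.

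For each tested member the 3 genes most like it were taken among the genes averaging 5 TPM or more (11187, or 11188 for members below that level), by Pearson r over the 10 libraries, as a description with no test. Tnf was closest to Nin, a centrosome protein gene, Mapk11, a p38 kinase gene, and Ddx46 (r of 0.99, 0.99 and 0.98, and 0.95, 0.96 and 0.96 over the 8 libraries with few lymph node transcripts). Il1b was closest to H2-DMa, which loads peptides on MHC class II (r = 0.93). Cxcl12 had Ighv1-26, an immunoglobulin segment, and Akap10 among its 3 (r of 0.93 each), and Il1b also had an immunoglobulin segment, Igkv6-15 (r = 0.92). Cxcl1 was closest to Tpm4, a tropomyosin gene (r = 0.93), Ccl7 to Nat10 (r = 0.95), Ccl2 to Mrpl43, a mitochondrial ribosome gene (r = 0.94), Ccl9 to Fxr1 (r = 0.89) and Ccl6 to Nudt8 (r = 0.87). No member was among the 3 closest genes of another. How high such an r would be by chance was not tested.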

How the data were processed

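The authors deposited 1 table of log2(TPM + 1) values by gene symbol and library. The unit was inferred from the values, which taken back to TPM sum to 946188 to 954515 in a library. Kallisto, limma and GRCm38 appear, without versions, in the submitters' processing notes. The 1 line with no symbol held 0.00544% to 0.0108% of TPM and was left out. The filter kept the 16932 genes that reached 1 TPM in 2 or more libraries. Limma 3.58.1, run in R 4.3.3, fitted a mean for each of the 4 groups with variances that follow expression and 6 residual degrees of freedom. Contrasts were null minus wild type, high-fat minus low-fat and their interaction. Tests were two-sided, adjusted by Benjamini-Hochberg over all genes tested, and called at 0.05. The procedure was tested on simulated data. Coordinates are from GENCODE M21. Of 31-base words in member transcripts, 3.75% for Ccl9, 1.02% for Ccl6 and 0.11% for Cxcl12 also occur in other genes, and 0% for the other 6 members. The members and lists were chosen with earlier results of these data known. Named genes were all members, the tested receptors, up to 3 genes per list by smallest p in each averaged comparison and 3 like genes per member. Ccr3, Lyz2, S100a8, S100a9, Ly6g, Ltf, Cxcl13 and the genes of the closing section were named after their values were seen. Values of 1 receptor and 1 like gene are not reported here. Alternatives changed the pseudocount, filter, scaling, variance model, weights, libraries and the replicate block.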

Additional observations from a re-analysis of the deposited data

How the results depend on the processing

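No member was called in any comparison under any alternative run, as in the results above. The high-fat null minus wild-type differences of Ccl2 and Ccl7 kept their sign in 21 of 21 alternatives and that of Cxcl1 in 20 of 20. Cxcl1 and Il1b gave no value with a filter of 5 TPM. Counts of genes called over the whole table moved, and the cause was not tested. For genotype averaged, on the low-fat and on the high-fat diet, limma called 0, 0 and 2 genes. A pseudocount of 0.1 gave 3, 5 and 1, and no filter 15, 2 and 18. A pseudocount of 5 gave 1 on the high-fat diet. Dropping the mean trend gave 5 averaged and 1 on the low-fat diet, library weights 2 and 2, and fitting only the libraries compared gave 1 on each diet. The diet counts were 0 averaged, 0 in wild type and 1 in null pads, and the interaction count 0. No filter gave 3, 5, 0 and 3, and no trend 2 in wild type. In null pads both pseudocounts and no trend gave 0, while library weights and only the libraries compared gave 2. Without both WT_HFD 2 and Null_HFD 3, an alternative chosen after seeing the data in which WT_HFD keeps 1 library assumed to vary like the others, 0 genes were called for genotype on the high-fat diet and 2 for diet in null pads. Leaving out 1 library gave 0 to 2 (genotype averaged), 0 to 1 (low-fat), 0 to 3 (high-fat) and 0 to 2 for each diet comparison and the interaction.

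Of 1138 alternative values of 56 member differences, 72 turned sign, none of them called. Median-of-ratios scaling gave Ccl2 -0.0742 for diet averaged and Ccl7 -0.117 for diet in wild type, and rescaling nuclear genes gave -0.000882 and -0.00134. Library weights gave Ccl2 -0.0461 (low-fat), Cxcl12 -0.2875 and Tnf -0.0621 (high-fat), and interactions of -0.207 for Cxcl12, -0.189 for Tnf and -0.172 for Il1b. Leaving out both lymph node-rich libraries gave, for genotype, Il1b -0.111 averaged and, on the high-fat diet, Ccl9 -0.115, Cxcl12 -0.438 and Il1b -0.335. For diet it gave Ccl2 -0.0449, Ccl6 0.0684 and Cxcl1 -0.0763 averaged and Tnf -0.208 in wild type, with interactions of -0.233 for Cxcl12 and -0.447 for Il1b.

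The ranges without 1 library were, for genotype averaged, Cxcl12 -0.317 to 0.0762, Ccl6 -0.0051 to 0.283 and Tnf -0.126 to 0.929. On the low-fat diet they were Il1b -0.248 to 0.473, Ccl2 -0.2955 to 0.487, Cxcl1 -0.00563 to 0.801, Cxcl12 -0.453 to 0.104 and Tnf -0.154 to 0.71. On the high-fat diet they were Ccl9 -0.122 to 0.2925, Ccl6 -0.512 to 0.0322, Cxcl12 -0.428 to 0.318, Tnf -0.544 to 1.57 and Il1b -0.0624 to 1.08. For diet averaged they were Ccl2 -0.11 to 0.281, Cxcl1 -0.125 to 0.279, Ccl9 -0.0258 to 0.356 and Ccl6 -0.272 to 0.0158. In null pads they were Cxcl1 -0.015 to 0.792 and Ccl9 -0.244 to 0.0115, and in wild type Ccl7 -0.323 to 0.411, Il1b -0.113 to 0.608 and Tnf -0.208 to 1.9. For the interaction they were Tnf -0.836 to 1.27, Cxcl12 -0.223 to 0.523 and Il1b -0.1745 to 0.966.

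With the replicate number as a block, limma called 3 genes for diet in null pads, and the genotype differences were Tnf -0.246 averaged, Ccl2 -0.17, Tnf -0.355 and Il1b -0.0459 on the low-fat diet, and Cxcl12 -0.03545 and Tnf -0.137 on the high-fat diet. Whether the numbers pair the libraries cannot be decided from these values. Of 13 pairs with the same number, 2 had deviations from the group means correlated over 0.1 (-0.346 to 0.412). In a group of 2 libraries such deviations are exact opposites, which limits this check. Of 10 libraries, 7 were closest to another of their own number, a count under the same limit, and its share by chance was not worked out. With 2 or 3 libraries a group, and depth unknown, small differences among members near 1 TPM were not detectable.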

Other observations

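Several chemokines outside the set were more abundant than Ccl2. Ccl11, the eosinophil attractant eotaxin, measured 79.4, 63.2 and 79.3 TPM in Null_LFD, 69.9 and 81.1 TPM in WT_LFD, 111, 81.3 and 44.0 TPM in Null_HFD and 85.9 and 67.9 TPM in WT_HFD pads, with the genotypes overlapping on both diets. Pf4, a chemokine of platelets and some macrophages, ran from 41.2 TPM in Null_HFD 3 to 134 TPM in Null_LFD 3. Ccl12, a mouse Ccr2 ligand encoded beside Ccl2 and Ccl7, measured 8.65 TPM in Null_LFD 3, 9.17 TPM in Null_HFD 3 and 5.91 TPM in WT_LFD 2, and 0 to 3.98 TPM in the other 7 libraries. Cxcl3 was listed at 0 in all 10 libraries, and Cxcl2, another neutrophil attractant, in all but Null_HFD 2 (0.834 TPM).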
